A study of Mus musculus with 12 samples.

Results

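Keratin-associated proteins are the matrix proteins of hair. Their messenger RNA was examined here in 12 RNA-seq libraries of mouse rectum by taking every gene whose symbol begins with Krtap, which gave 54 genes of the 27785 in the table. The rule goes by symbol, and it was set with earlier results of these data known. The libraries fall into 4 groups. Mice of the Lgr5-Cdx2-Apc group (n = 2) carried floxed Apc and both Lgr5creER and CDX2creER, mice of the Lgr5-Apc group (n = 4) carried floxed Apc and Lgr5creER, and mice of the Cdx2-Apc group (n = 3) carried floxed Apc and CDX2creER. Apc encodes a tumour suppressor that holds back the Wnt pathway. Each transgene is a tamoxifen-activated Cre recombinase driven by Lgr5, a gene of intestinal stem cells, or by Cdx2, a gene of hindgut epithelium. Lgr5 is also active in stem cells of the hair follicle. The control samples (n = 3) are titled WT, while their genotype field reads CDX2creER;APC flox (WT), and it is not known whether they carried the transgene or the floxed allele. A tamoxifen dose of 25 mg/kg by intraperitoneal injection on 5 days stands in the protocol of every sample, while the treatment characteristic is given for the Apc groups and not for the controls. Age, sex and the time after tamoxifen are not given. Nothing in the labels says which samples came from separate animals, so the p-values below measure the spread between these samples, which may be technical.

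A hair shaft is built from hair keratins, which form long filaments, and from keratin-associated proteins, which fill the space between the filaments and are bound to them by disulphide bridges. The associated proteins are divided into a cysteine-rich class and a class high in glycine and tyrosine, and they are made late, in cortex and cuticle cells that have already begun to lay down hair keratins. The rectum is lined by columnar epithelium and grows no hair, whereas the skin around the anus does. In bulk tissue, fewer cells of a type and less RNA per cell cannot be told apart.

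All 54 genes were found in the GENCODE annotation of GRCm38, the build also called mm10. There were 24 on chromosome 16 between 88610705 and 89571183, 21 on chromosome 11 between 99550130 and 99993994, 5 on chromosome 7 between 142174535 and 142304594, 2 on chromosome 10 between 77720599 and 77827095, and 2 on chromosome 1 between 83041524 and 83061921. All are small genes: 49 of 54 have a single exon in every annotated transcript, and the transcripts are 304 to 1888 bases long with a median of 839.5. By family number, 33 belong to cysteine-rich families, 15 to the families high in glycine and tyrosine (KAP6, KAP7, KAP8 and KAP19 to KAP22), and 6 to KAP16, KAP28, KAP29 and KAP31, which were not classed.

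The promoters of these genes share a feature that the choice by name did not use. RefSeq sequence of 250 bases before to 50 bases after the start (GRCm38.p6) was available for 49 of the 54 genes, all but Krtap7-1, Krtap12-1, Krtap1-3, Krtap28-10 and Krtap9-1. The TATA box letters TATAAA stood on the gene's own strand between 40 and 21 bases before the start in 29 of 49 promoters (59.2%), against 1.87% of the 32851 promoters in the RefSeq table. On either strand and anywhere in the 300 bases, TATAAA was present in 40 of 49 (81.6%), against 13.6% of all promoters. CTTTGAA, a core recognised by LEF1, a Wnt-pathway factor of hair matrix cells, was present on either strand in 9 of 49 (18.4%), against 5.14%. The count over 300 bases includes the 29 genes of the short window. These matches describe letters only and do not show that a factor binds there. The 60 bases that end at the base before the start are given for the highest gene with a sequence on each of the 5 chromosomes, for Krtap22-2 as another of the highest genes, and for Krtap15, a high gene without TATAAA in this stretch. TATAAA is in capitals.

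Krtap8-1, chr16:89487953-89488012, minus strand: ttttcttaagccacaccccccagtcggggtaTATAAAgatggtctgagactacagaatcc
Krtap22-2, chr16:89010760-89010819, minus strand: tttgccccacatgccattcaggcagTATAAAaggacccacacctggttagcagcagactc
Krtap15, chr16:88828949-88829008, plus strand: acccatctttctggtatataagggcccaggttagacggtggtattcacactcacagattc
Krtap3-1, chr11:99566631-99566690, minus strand: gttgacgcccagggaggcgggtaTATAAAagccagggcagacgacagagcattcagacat
Krtap5-1, chr7:142297135-142297194, minus strand: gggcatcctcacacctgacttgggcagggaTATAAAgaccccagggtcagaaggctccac
Krtap10-4, chr10:77827071-77827130, minus strand: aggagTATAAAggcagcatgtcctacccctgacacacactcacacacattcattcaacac
Krtap28-13, chr1:83060870-83060929, plus strand: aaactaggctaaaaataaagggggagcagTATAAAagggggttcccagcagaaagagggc

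In these sequences TATAAA began 29 bases before the start in Krtap8-1, 35 in Krtap22-2, 37 in Krtap3-1, 30 in Krtap5-1, 31 in Krtap28-13 and 55 in Krtap10-4, where it lies outside the short window. These genes come from 5 separate gene clusters and from several protein families.

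Marker lists of other cell types differed in level between the libraries, also within groups. Apc, scored over the whole gene, was 13.5 to 18.8 FPKM (fragments scaled by transcript length and by library size) in the 12 libraries, and a whole-gene value cannot tell if the floxed exons were lost. Total FPKM was 451297 to 728462 per library, and the number of reads is not known. The labels name no batch or date. The columnar epithelium marker list, 10 genes such as Krt8 and Epcam, had a mean log2(FPKM + 1) of 7.10 and 4.46 in Lgr5-Cdx2-Apc and of 6.43 to 9.57 in the other 10. The smooth muscle list of 8 genes stood at 3.05 and 2.27 in Lgr5-Cdx2-Apc and at 5.96 to 8.56 in the other 10. The cornifying epidermis list of 16 genes, with Krt10, Lor and Krt14, stood at 8.66 and 9.17 in the Lgr5-Cdx2-Apc libraries, at 2.72, 8.71, 6.77 and 0.25 in Lgr5-Apc replicates 1 to 4, at 0.72 to 3.29 in the Cdx2-Apc libraries and at 1.16 to 3.80 in the controls. Lgr5-Apc replicates 2 and 3 therefore stood apart from replicates 1 and 4 of their group.

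**Figure D1:**
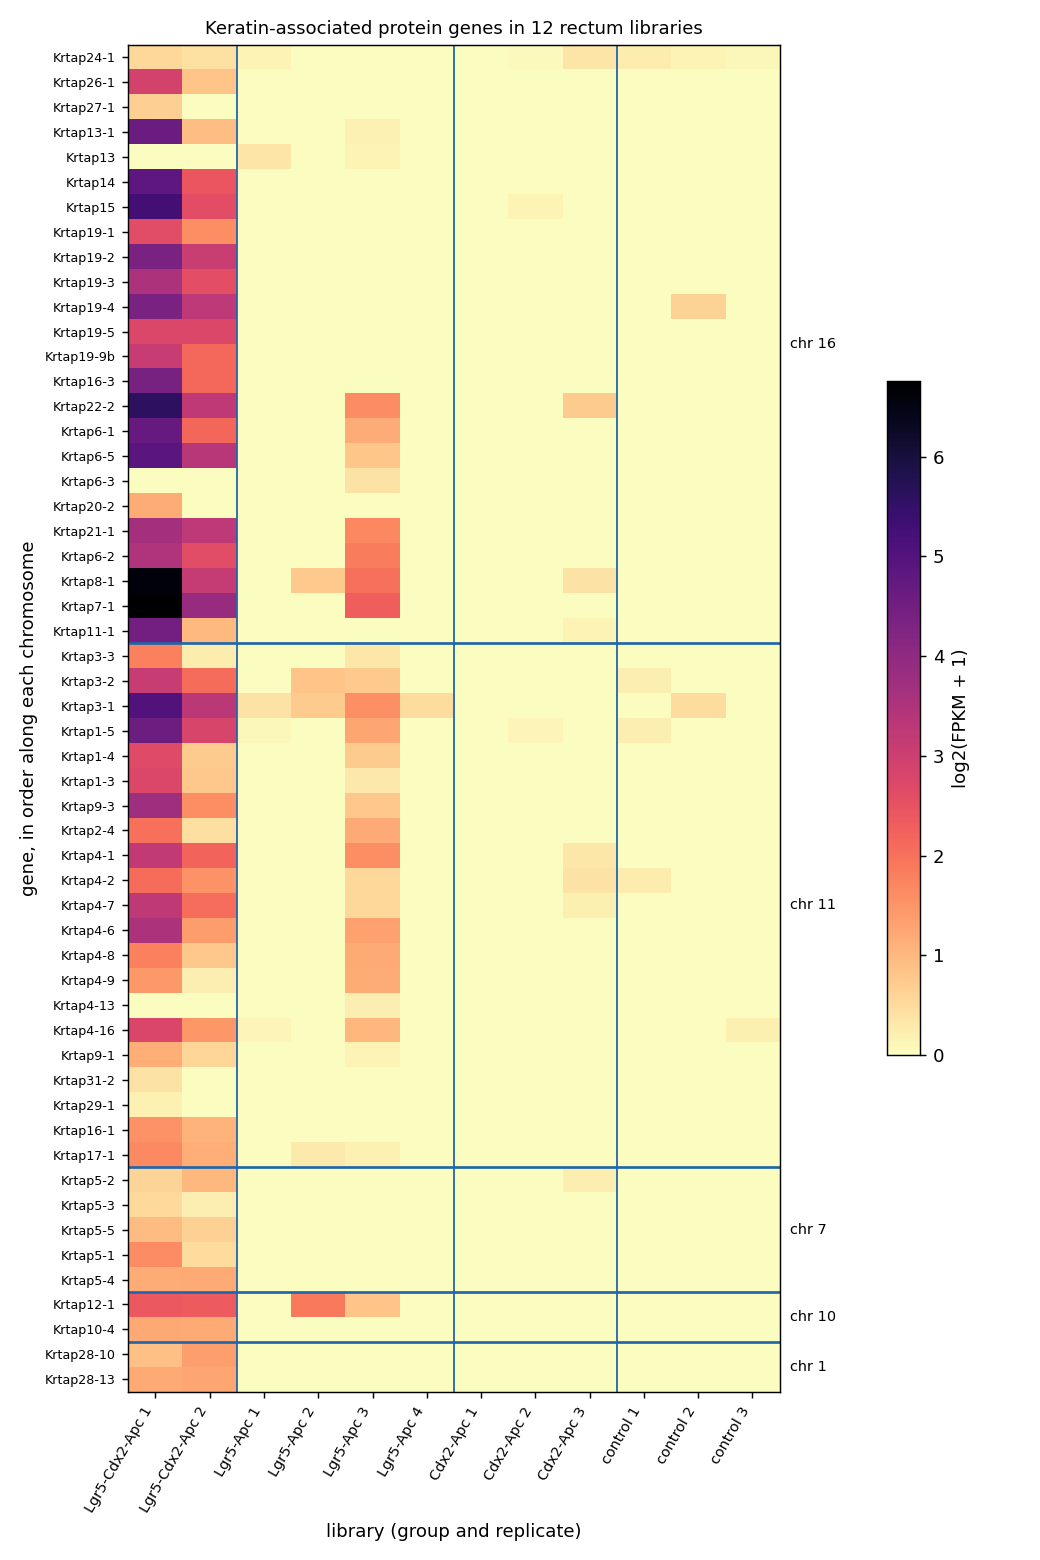
The 54 genes are in order along each chromosome (down the page) and the 12 libraries run across, with colour for log2(FPKM + 1). Colour fills the columns of both Lgr5-Cdx2-Apc libraries, is weaker in Lgr5-Apc replicate 3, and is near absent in the other 9 libraries apart from scattered single genes.

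RNA of most keratin-associated protein genes was present in both Lgr5-Cdx2-Apc libraries. Of the 54 genes, 51 and 47 had a value above 0 in Lgr5-Cdx2-Apc replicates 1 and 2. In Lgr5-Apc replicates 1 to 4 the counts were 5, 5, 29 and 1, in Cdx2-Apc replicates 1 to 3 they were 0, 3 and 8, and in control replicates 1 to 3 they were 4, 3 and 2. At 1 FPKM or more there were 43 and 33 genes in Lgr5-Cdx2-Apc and 14 in Lgr5-Apc replicate 3. One gene, Krtap12-1, reached 1 FPKM in Lgr5-Apc replicate 2, and none did in the other 8 libraries. The mean number of genes at 1 FPKM or more was 38 ± 7.07 in Lgr5-Cdx2-Apc (SD, n = 2), 3.75 ± 6.85 in Lgr5-Apc (SD, n = 4), and 0 in Cdx2-Apc (n = 3) and in control (n = 3). Lgr5-Apc replicate 3 decides the Lgr5-Apc mean, which was 0.333 without it. All 54 genes are listed above 0 in at least 1 library, but 9 stayed below 1 FPKM in every library.

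**Figure D2:**
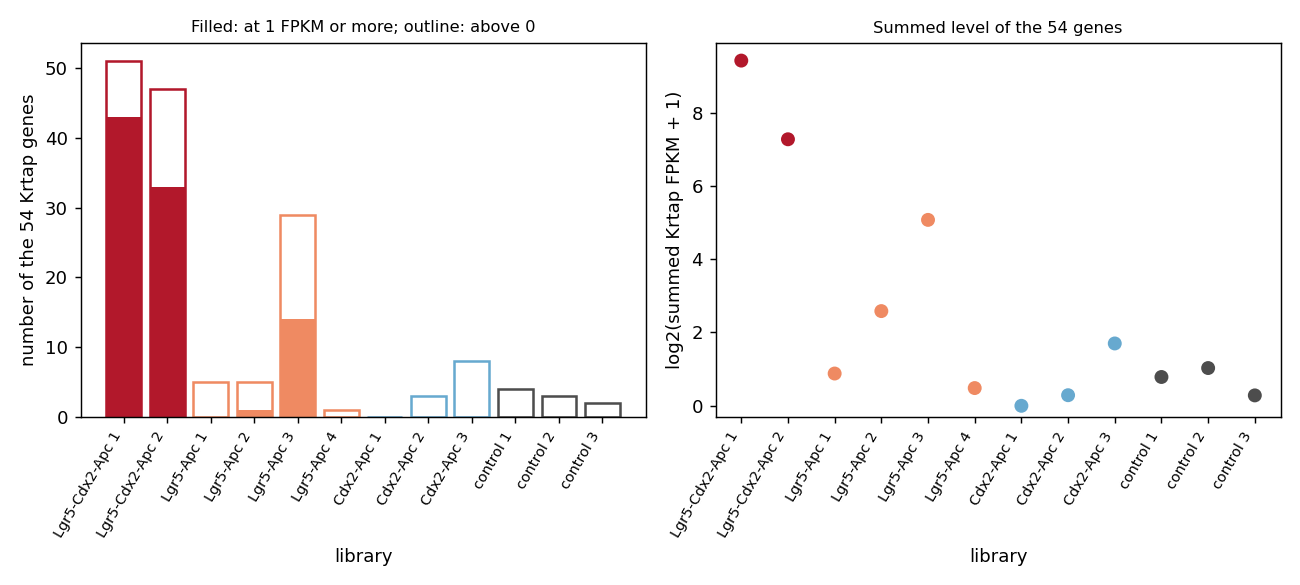
Left, the number of Krtap genes at 1 FPKM or more (filled bars) and above 0 (outlines) in each library; right, the summed level of the 54 genes as log2(summed FPKM + 1). The Lgr5-Cdx2-Apc libraries hold 43 and 33 genes at 1 FPKM or more, and Lgr5-Apc replicate 3 is the highest of the remaining libraries with 14.

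The summed level of the 54 genes separated the libraries further. It was 682 and 153 FPKM in Lgr5-Cdx2-Apc replicates 1 and 2, or 0.118% and 0.0258% of the total FPKM of the library. It was 0.841, 4.99, 32.6 and 0.398 FPKM in Lgr5-Apc replicates 1 to 4, 0, 0.222 and 2.25 FPKM in Cdx2-Apc replicates 1 to 3, and 0.724, 1.04 and 0.217 FPKM in control replicates 1 to 3. Both Lgr5-Cdx2-Apc libraries lay above every other library, and Lgr5-Apc replicate 3 was the nearest. For 42 of 54 genes (77.8%), both Lgr5-Cdx2-Apc values were above each of the other 10 values, against 11.6% of the 27785 genes in the table. There were 20 genes listed at 0 in all 10 libraries outside Lgr5-Cdx2-Apc, and 37 that were at 0 outside Lgr5-Cdx2-Apc and Lgr5-Apc replicate 3. The highest value of any of the 54 genes was 0.666 FPKM in Cdx2-Apc (Krtap22-2, replicate 3) and 0.550 FPKM in the controls (Krtap19-4, replicate 2).

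The genes high in glycine and tyrosine, whose products lie mainly in the hair cortex, gave the highest single levels. Krtap7-1 was 107 and 13.6 FPKM in Lgr5-Cdx2-Apc and 3.85 FPKM in Lgr5-Apc replicate 3, and it was listed at 0 in the other 3 Lgr5-Apc libraries, all Cdx2-Apc libraries and all controls. It was the highest of the 54 genes in each of these 3 libraries. Krtap8-1 was 97.1 and 7.76 FPKM in the Lgr5-Cdx2-Apc libraries, 0, 0.674, 3.02 and 0 FPKM in Lgr5-Apc replicates 1 to 4, 0, 0 and 0.305 FPKM in Cdx2-Apc replicates 1 to 3, and 0 in the controls. Krtap22-2 was 47.7 and 8.44 FPKM in the Lgr5-Cdx2-Apc libraries, 2.07 FPKM in Lgr5-Apc replicate 3, 0.666 FPKM in Cdx2-Apc replicate 3 and 0 in the other 8 libraries. For all 3 genes the lower Lgr5-Cdx2-Apc value was above the highest value elsewhere. The same held for Krtap6-5, at 28.7 and 9.11 FPKM in the Lgr5-Cdx2-Apc libraries, and for Krtap6-1, at 24.8 and 3.47 FPKM, which had 0.737 and 1.24 FPKM in Lgr5-Apc replicate 3 and 0 elsewhere.

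The 6 KAP19 genes, which are also high in glycine and tyrosine, differed from these in where they were found. Krtap19-4 was 19.8 and 8.57 FPKM in Lgr5-Cdx2-Apc and 0.550 FPKM in control replicate 2, and was 0 in the other 9 libraries. Krtap19-2 was 19.3 and 7.48 FPKM, Krtap19-3 10.4 and 4.91 FPKM, Krtap19-9b 7.63 and 3.36 FPKM, Krtap19-5 5.75 and 5.76 FPKM and Krtap19-1 5.12 and 2.04 FPKM in Lgr5-Cdx2-Apc replicates 1 and 2, and these 5 were listed at 0 in the other 10 libraries. The family therefore summed to 68.0 and 32.1 FPKM in the Lgr5-Cdx2-Apc libraries while 0 of 6 genes were above 0 in Lgr5-Apc replicate 3. The KAP6, KAP7, KAP8, KAP21 and KAP22 genes lie on the same chromosome 16 stretch, and 8 of these 8 were above 0 in Lgr5-Apc replicate 3. Krtap21-1, at 11.6 and 8.49 FPKM in the Lgr5-Cdx2-Apc libraries, had 2.22 FPKM there, and Krtap6-2, at 10.1 and 5.19 FPKM, had 2.56 FPKM.

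Among the cysteine-rich genes of chromosome 11, Krtap3-1 was the highest. It was 31.5 and 8.73 FPKM in the Lgr5-Cdx2-Apc libraries, 0.294, 0.655, 1.99 and 0.398 FPKM in Lgr5-Apc replicates 1 to 4, 0 in Cdx2-Apc, and 0, 0.396 and 0 FPKM in control replicates 1 to 3. It was the only one of the 54 genes above 0 in all Lgr5-Apc libraries, and its Lgr5-Cdx2-Apc values did not overlap with any other. Krtap1-5 was 23.0 and 6.02 FPKM in the Lgr5-Cdx2-Apc libraries, at most 1.39 FPKM in Lgr5-Apc, at most 0.0767 FPKM in Cdx2-Apc and at most 0.160 FPKM in control. Krtap9-3 was 12.4 and 2.00 FPKM in the Lgr5-Cdx2-Apc libraries, 0.711 FPKM in Lgr5-Apc replicate 3 and 0 elsewhere. The 8 KAP4 genes, an ultra-high-sulphur family, summed to 40.2 and 12.9 FPKM in Lgr5-Cdx2-Apc and to 8.15 FPKM in Lgr5-Apc replicate 3, where 8 of 8 were above 0. Among them, Krtap4-6 was 10.5 and 1.63 FPKM, Krtap4-7 8.38 and 3.11 FPKM and Krtap4-1 8.03 and 3.58 FPKM in the Lgr5-Cdx2-Apc libraries, against 1.45, 0.461 and 2.01 FPKM in Lgr5-Apc replicate 3. The KAP1, KAP2 and KAP3 families of this chromosome had 7 of 7 genes above 0 in that library.

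The highest cysteine-rich genes of chromosome 16 were higher in Lgr5-Cdx2-Apc replicate 1 than in replicate 2. This was not particular to them, since it held for 42 of the 47 Krtap genes above 0 in both libraries. Krtap15 was 37.2 and 5.09 FPKM and Krtap14 26.9 and 4.47 FPKM in Lgr5-Cdx2-Apc replicates 1 and 2. Outside this group Krtap15 was listed above 0 only in Cdx2-Apc replicate 2, at 0.0974 FPKM, and Krtap14 in no library. These loci overlap on opposite strands, and whether the authors counted by strand is not stated, so the split of reads between them is uncertain. Krtap13-1 was 23.3 and 0.871 FPKM in Lgr5-Cdx2-Apc replicates 1 and 2, with 0.133 FPKM in Lgr5-Apc replicate 3. Krtap11-1 was 21.3 and 0.984 FPKM, with 0.106 FPKM in Cdx2-Apc replicate 3. Krtap16-3, of a family that was not classed, was 20.05 and 3.33 FPKM in Lgr5-Cdx2-Apc and 0 in the other 10 libraries.

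The clusters on chromosomes 7, 10 and 1, cysteine-rich apart from KAP28, were lower. Krtap12-1 was 4.23 and 4.04 FPKM in Lgr5-Cdx2-Apc and 2.69 and 0.767 FPKM in Lgr5-Apc replicates 2 and 3, and was 0 elsewhere. It was the only one of the 54 genes at 1 FPKM or more in Lgr5-Apc replicate 2. Krtap10-4 was 1.32 and 1.31 FPKM, Krtap5-4 1.25 and 1.30 FPKM, Krtap28-13 1.32 and 1.37 FPKM, Krtap28-10 0.849 and 1.57 FPKM and Krtap5-1 2.09 and 0.391 FPKM in Lgr5-Cdx2-Apc replicates 1 and 2, with 0 in all other libraries. On chromosome 11, Krtap16-1 was 1.93 and 1.10 FPKM in Lgr5-Cdx2-Apc with 0 elsewhere, and Krtap17-1 was 2.12 and 1.20 FPKM, with 0.204 and 0.134 FPKM in Lgr5-Apc replicates 2 and 3.

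The question of which genotype differed was put to the whole table with limma on log2(FPKM + 1), for the 17360 genes at 1 FPKM or more in at least 2 of 12 libraries, with Benjamini-Hochberg adjustment over all of them. Of the 54 Krtap genes, 34 entered the test. They entered through the Lgr5-Cdx2-Apc libraries, since 0 of 54 had 1 FPKM in 2 of the other 10, so the counts below describe the result and are no support for it. Against control, 32 of the 54 genes (59.3%) rose in Lgr5-Cdx2-Apc and 0 fell, at an adjusted p below 0.05. Of all genes tested, 10.5% were higher and 8.55% lower. The 34 tested Krtap genes had a median log2 difference of 2.68, and all tested genes one of 0.07. For genes listed at 0 in the controls this difference depends on the pseudocount of 1 FPKM. All 13 tested genes of the glycine and tyrosine class rose, as did 16 of 18 tested cysteine-rich genes and the 3 tested genes of families not classed. Krtap2-4, at 3.07 and 0.352 FPKM, and Krtap4-9, at 1.73 and 0.163 FPKM in the Lgr5-Cdx2-Apc libraries, did not pass, with adjusted p of 0.0817 and 0.165, and both are listed at 0 in the controls.

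For most genes that rose, all 3 controls are listed at 0, so no fold is given. Krtap19-5 had the smallest adjusted p of the Krtap genes, 5.28e-05, with 5.75 and 5.76 FPKM in the Lgr5-Cdx2-Apc libraries against 0 in all controls. Krtap19-2 and Krtap19-3 followed, each with an adjusted p of 0.00029. The genes with the highest levels had larger adjusted p, at 0.00338 for Krtap22-2, 0.00396 for Krtap7-1 and 0.00757 for Krtap8-1, and their Lgr5-Cdx2-Apc libraries lay further apart. Among the genes with a control value above 0, the log2(FPKM + 1) difference of Lgr5-Cdx2-Apc over control was 3.99 ± 0.48 for Krtap3-1 (SE; adjusted p = 0.00147), 3.63 ± 0.49 for Krtap1-5 (adjusted p = 0.00223) and 3.61 ± 0.31 for Krtap19-4 (adjusted p = 0.000295). It was 2.51 ± 0.34 for Krtap3-2 (adjusted p = 0.00223), a cysteine-rich neighbour of Krtap3-1, 2.05 ± 0.39 for Krtap4-16 (adjusted p = 0.0103) and 1.72 ± 0.25 for Krtap4-2 (adjusted p = 0.00322). Krtap4-16 did not pass without Lgr5-Cdx2-Apc replicate 1 (adjusted p = 0.0609). Some family members share sequence, and 43.8% of the 50-base windows of Krtap2-4, 42.0% of those of Krtap10-4, 33.4% of those of Krtap4-8, 28.9% of those of Krtap3-2 and 28.3% of those of Krtap6-1 occur in other transcripts, so their values are uncertain. In each of the 6 called genes with a control value above 0, both Lgr5-Cdx2-Apc libraries were above all 3 controls. Their calls make this likely, so it is a description only. Krtap24-1 also had control values above 0 and did not enter the test. Where all other libraries are at 0, the spread behind the p-value comes from the 2 Lgr5-Cdx2-Apc libraries and from the moderation over all genes. All groups share a common estimate of the spread, and groups at 0 lower it. Where the 2 Lgr5-Cdx2-Apc libraries lie far apart, SE and p-value can therefore be smaller than those libraries alone would give. An exact permutation test of 2 libraries against 3 cannot give a p below 0.1.

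The same Lgr5-Cdx2-Apc libraries were compared with the single-driver groups. Against Lgr5-Apc, 31 of the 54 Krtap genes rose and 0 fell, where 5.22% of all tested genes were higher and 3.77% lower. Against Cdx2-Apc 32 rose and 0 fell, where 12.1% were higher and 11.7% lower. The median log2 difference of the tested Krtap genes was 2.55 over Lgr5-Apc and 2.64 over Cdx2-Apc, beside 0.03 and 0.04 for all tested genes. With Lgr5-Cdx2-Apc and Lgr5-Apc fitted alone, 11 Krtap genes rose in place of 31, and with 1 FPKM required in 3 libraries 12 Krtap genes entered the test, of which 11 to 12 rose in each of the 3 comparisons. Krtap4-8, another KAP4 gene, was 2.46 and 0.723 FPKM in Lgr5-Cdx2-Apc and 1.31 FPKM in Lgr5-Apc replicate 3. It rose over control (adjusted p = 0.0436) and did not pass over Lgr5-Apc, where the groups overlap and the log2 difference was 0.99 ± 0.37 (SE; adjusted p = 0.110). The call of Krtap4-8 over control was lost when any 1 library of Lgr5-Cdx2-Apc, Cdx2-Apc or control was left out, with adjusted p of 0.0603 to 0.255. Krtap12-1 rose over control (adjusted p = 0.0113), a call lost without Lgr5-Cdx2-Apc replicate 1 (adjusted p = 0.0576) or replicate 2 (adjusted p = 0.0858). It passed over Lgr5-Apc with a log2 difference of 1.68 ± 0.44 (SE; adjusted p = 0.0432). Krtap7-1 had a log2 difference of 4.74 ± 0.78 over Lgr5-Apc (SE; adjusted p = 0.00664), and Krtap3-1 one of 3.36 ± 0.45 (SE; adjusted p = 0.00251). Fitted without the filter on low values, over all 27785 genes, 42 Krtap genes rose over control (7.46% of all genes), 41 over Lgr5-Apc (4.43%) and 43 over Cdx2-Apc (8.34%). In that fit Krtap11-1 and Krtap13-1, which reached 1 FPKM in only 1 library, rose over control with adjusted p of 0.0385 and 0.0450, and Krtap13-1 did not pass over Lgr5-Apc (adjusted p = 0.0559). These comparisons share their Lgr5-Cdx2-Apc libraries, so their counts are not independent of each other.

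Between the other groups no Krtap gene passed. Lgr5-Apc over control, Cdx2-Apc over control and Lgr5-Apc over Cdx2-Apc each gave 0 called Krtap genes by limma, and 0 of the 34 tested had an unadjusted p under 0.05. Few genes of any kind passed in these comparisons. Of all tested genes, 0% were higher and 0.0115% lower in Lgr5-Apc over control, 0.0288% higher and 0.0115% lower in Cdx2-Apc over control, and 0.00576% higher and 0.0288% lower in Lgr5-Apc over Cdx2-Apc. In Lgr5-Apc the 29 genes of replicate 3 stood against 5, 5 and 1 in the other 3 libraries.

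**Figure D3:**
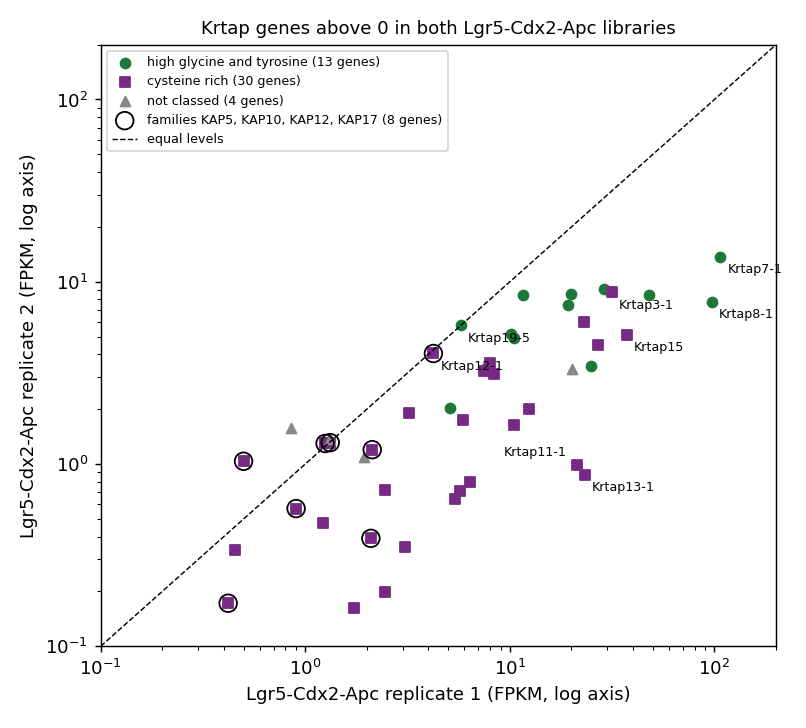
Each point is 1 of the 47 Krtap genes above 0 in both Lgr5-Cdx2-Apc libraries, with the FPKM of replicate 1 across and of replicate 2 upward, both on log axes; the dashed line marks equal levels. Most points lie below the line, the KAP5, KAP10, KAP12 and KAP17 genes are circled (median ratio 1.32, with Krtap5-1 at 5.35), and Krtap13-1 and Krtap11-1 lie farthest from it.

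The Lgr5-Cdx2-Apc libraries differed from each other in level far more than in the genes they held. Of the 47 genes above 0 in both, 42 were higher in replicate 1 and 5 were not, with a median ratio of replicate 1 to replicate 2 of 2.69 and a range of 0.482 (Krtap5-2) to 26.7 (Krtap13-1). Spearman's rho between these libraries over the 54 genes was 0.83, a description across genes of 2 libraries, in which each gene has the same length. The class high in glycine and tyrosine made up 58.1% and 57.5% of the summed Krtap FPKM in replicates 1 and 2 of Lgr5-Cdx2-Apc, and 49.1% in Lgr5-Apc replicate 3. The ratio was not the same in all families. Its median was 3.51 over 30 cysteine-rich genes and 2.51 over 13 genes of the glycine and tyrosine class. Krtap13-1, Krtap11-1 and Krtap8-1 had ratios of 26.7, 21.7 and 12.5, whereas the 6 KAP19 genes ran from 0.998 to 2.58. The 8 detected genes of KAP5, KAP10, KAP12 and KAP17, families known from the cuticle of human hair, had a median ratio of 1.32 and summed to 12.8 and 10.01 FPKM in replicates 1 and 2. The 39 detected genes of the other families had a median ratio of 3.41, from 0.542 to 26.7, and summed to 667 and 143 FPKM. Low ratios were found there too, at 1.37 for KAP21, 1.35 for KAP24 and 0.738 for the sum of KAP28. The grouping of KAP5, KAP10, KAP12 and KAP17 was made after the ratios were seen and was not tested. Within it Krtap5-1 had a ratio of 5.35, and 54.3% of its sequence windows of 50 bases also occur in other transcripts, so its reads may be shared with its neighbours.

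Lgr5-Apc replicate 3 held a part of the same set at lower levels. Of its 29 genes above 0, 18 lie on chromosome 11, 10 on chromosome 16 and 1 on chromosome 10, whereas the 5 genes of chromosome 7 and the 2 of chromosome 1 were at 0. The 26 of them that Lgr5-Cdx2-Apc replicate 1 also held were a median of 11.4 times higher in that library, with a range of 1.37 to 176. In Lgr5-Cdx2-Apc replicate 2 they were a median of 3.23 times higher, and 5 of 26 were lower than in Lgr5-Apc replicate 3. The 3 genes seen in Lgr5-Apc replicate 3 and in neither Lgr5-Cdx2-Apc library were Krtap6-3, Krtap13 and Krtap4-13, at 0.305, 0.113 and 0.163 FPKM. They were chosen for mention after their values were seen, and 81.3% of the windows of Krtap4-13 occur in other transcripts.

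Genes of the rest of the hair follicle were examined beside the Krtap genes. Hair keratins form the filaments that the associated proteins bind, and 15 of 16 listed were in the table. Krt83 was 40.7 and 2.32 FPKM, Krt33a 25.4 and 0.900 FPKM, Krt33b 24.7 and 1.33 FPKM and Krt87 23.2 and 1.24 FPKM in Lgr5-Cdx2-Apc replicates 1 and 2. Against control, 7 of 10 tested hair keratins rose in Lgr5-Cdx2-Apc (Krt32, Krt33b, Krt34, Krt35, Krt81, Krt83 and Krt86) and 0 fell. Against Lgr5-Apc 6 rose. The tested genes Krt36, Krt84 and Krt87 did not pass over control, Lgr5-Apc or Cdx2-Apc. For each of these genes, Lgr5-Cdx2-Apc replicate 2 was below Lgr5-Apc replicate 3. Of the 10, 8 entered the test only with the Lgr5-Cdx2-Apc libraries counted, so as for the Krtap genes these counts are a description. The median log2 difference of the 10 over control was 2.55. Over all tested genes, 10.5% were higher against control and 5.22% against Lgr5-Apc. The summed level of the list was 212 and 17.7 FPKM in Lgr5-Cdx2-Apc, 1.73, 2.58, 12.1 and 2.03 FPKM in Lgr5-Apc replicates 1 to 4, 1.50 to 2.73 FPKM in Cdx2-Apc and 1.62 to 2.22 FPKM in control. All 15 were higher in Lgr5-Cdx2-Apc replicate 1 than in replicate 2, with a median ratio of 7.86, beside 2.69 for the Krtap genes. Krt31, Krt33a, Krt33b, Krt34, Krt40, Krt81 and Krt82 were at 0 in all controls.

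Genes of the inner root sheath, the layer that moulds the growing shaft, were highest in the same libraries. Krt71, a keratin of that sheath, was 57.1 and 15.3 FPKM in Lgr5-Cdx2-Apc, 0, 0.0744, 0.823 and 0 FPKM in Lgr5-Apc replicates 1 to 4, at most 0.312 FPKM in Cdx2-Apc and at most 0.0474 FPKM in control. Of 11 tested genes of the sheath and companion layer list, 10 rose over control and 8 over Lgr5-Apc, beside 10.5% and 5.22% of all tested genes. Of the 11, 8 entered the test only with the Lgr5-Cdx2-Apc libraries counted. The 10 included Tchh, which encodes trichohyalin, at 37.9 and 8.68 FPKM in Lgr5-Cdx2-Apc and at most 0.900 FPKM in control. Gata3, a transcription factor of the sheath and also of interfollicular epidermis, was 107 and 74.5 FPKM in Lgr5-Cdx2-Apc and 48.1 FPKM in Lgr5-Apc replicate 2, and rose over control and not over Lgr5-Apc. Krt79, at 264 and 422 FPKM in Lgr5-Cdx2-Apc and 256 FPKM in Lgr5-Apc replicate 2, was the tested gene of the list that did not pass over control.

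Of the regulators and other proteins of the shaft, 8 of 21 tested genes were higher and 1 lower over control, and 3 were higher over Lgr5-Apc. Hoxc13, Padi3 and Lef1 entered the test only with the Lgr5-Cdx2-Apc libraries counted, so any calls of these are a description. The shares over all tested genes were 10.5% higher and 8.55% lower over control, and 5.22% higher over Lgr5-Apc. The 8 higher over control were Dlx3, Foxn1, Hoxc13, Hr, Lhx2, Msx2, Padi3 and Prdm1, and the 1 lower was Selenbp1, which was also at 152 to 363 FPKM in the controls. Over Cdx2-Apc the same 8 were higher and 2, Cux1 and Selenbp1, were lower. Of all tested genes, 12.1% were higher and 11.7% lower over Cdx2-Apc. Tgm3, a transglutaminase that cross-links proteins of the shaft and is also made in other epithelia, was 63.4 and 83.9 FPKM in Lgr5-Cdx2-Apc and 196 to 317 FPKM in control, and did not pass. Lef1, named here because its core sequence was counted in the promoters, was 1.04 and 0.808 FPKM in Lgr5-Cdx2-Apc. It was at most 1.01 FPKM in Lgr5-Apc, 0.347 FPKM in Cdx2-Apc and 0.504 FPKM in control. By limma Lef1 did not pass over control (adjusted p = 0.154), Lgr5-Apc (adjusted p = 0.330) or Cdx2-Apc (adjusted p = 0.0896). Hoxc13 and Foxn1, transcription factors that drive hair keratin genes, are named here after their values were seen. Hoxc13 was 3.89 and 2.77 FPKM in Lgr5-Cdx2-Apc, 0, 1.09, 0.355 and 0 FPKM in Lgr5-Apc replicates 1 to 4 and at most 0.0400 FPKM in control, and it rose over both groups. Foxn1 was 5.08 and 5.51 FPKM in Lgr5-Cdx2-Apc, 0.802, 4.69, 2.34 and 0.0390 FPKM in Lgr5-Apc replicates 1 to 4 and 0.357 to 1.13 FPKM in control, and it rose over control and not over Lgr5-Apc. Pigment cell genes were low: Mitf was 5.55 and 4.32 FPKM and Dct 1.35 and 1.68 FPKM in Lgr5-Cdx2-Apc. Both passed over control and over Lgr5-Apc, and the other 6 of the list did not enter the test. Dct entered only with the Lgr5-Cdx2-Apc libraries counted, so its calls are a description.

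**Figure D4:**
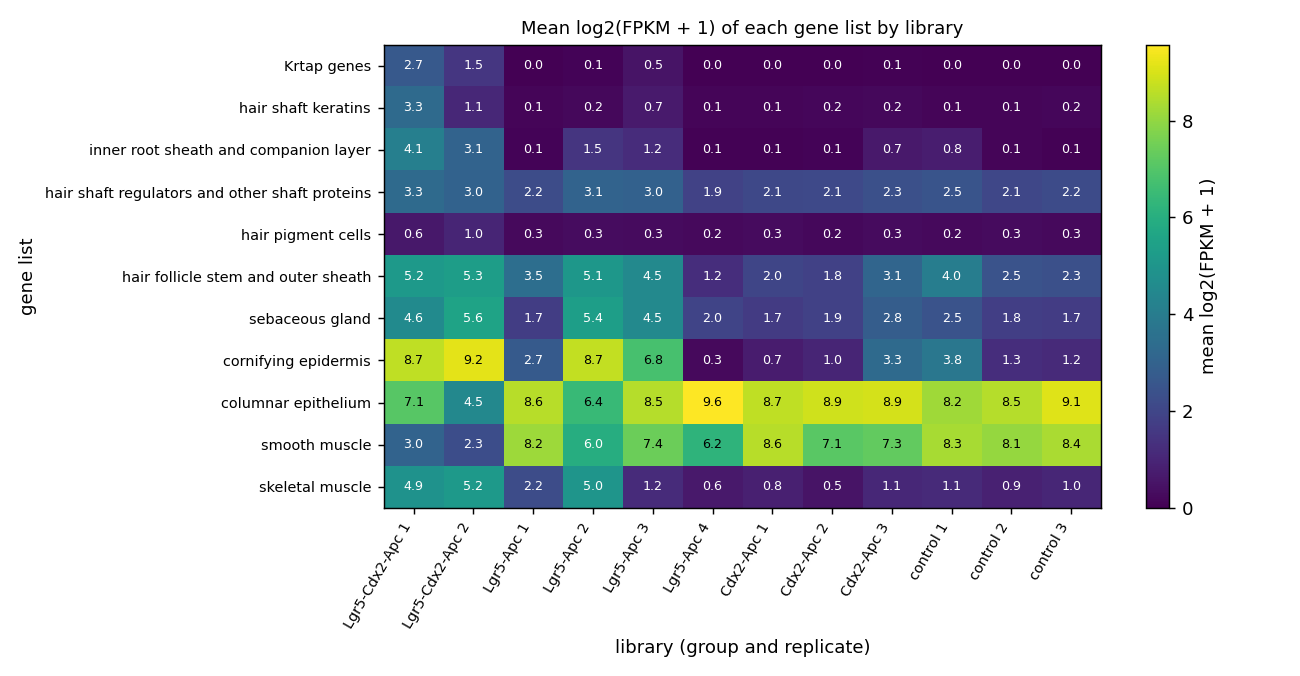
Mean log2(FPKM + 1) of the Krtap genes and of 10 marker lists (down the page) in the 12 libraries (across), with the value printed in each cell. The Krtap genes and the inner root sheath and companion layer list (4.12 and 3.05) stand out in both Lgr5-Cdx2-Apc libraries. The hair keratins stand out in replicate 1 (3.33) and little in replicate 2 (1.05, beside 0.69 in Lgr5-Apc replicate 3). The cornifying epidermis list is as high in Lgr5-Apc replicate 2 (8.71) as in the Lgr5-Cdx2-Apc libraries (8.66 and 9.17).

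Epidermal genes were high in the Lgr5-Cdx2-Apc libraries and also in Lgr5-Apc replicates 2 and 3. Of the 16 genes of the cornifying epidermis list, 7 had both Lgr5-Cdx2-Apc libraries above all other 10, among them Krt14, and 9 did not, among them Krt10 and Lor. The share over all genes with both above was 11.6%. Krt10, the keratin of suprabasal epidermis, was 2734 and 6923 FPKM in Lgr5-Cdx2-Apc, 74.8, 5939, 3547 and 2.38 FPKM in Lgr5-Apc replicates 1 to 4, 8.49, 5.64 and 82.6 FPKM in Cdx2-Apc replicates 1 to 3, and 282, 8.23 and 9.93 FPKM in control replicates 1 to 3. Lor, which encodes loricrin of the cornified envelope, was 616 and 546 FPKM in Lgr5-Cdx2-Apc and 867 and 484 FPKM in Lgr5-Apc replicates 2 and 3. Krt14, of basal epidermis and outer root sheath, was 2137 and 2807 FPKM in Lgr5-Cdx2-Apc and 1802 and 775 FPKM in Lgr5-Apc replicates 2 and 3. Lgr5-Apc replicate 2 thus held Krt10, Lor and Krt14 near the levels of both Lgr5-Cdx2-Apc libraries. The Krtap sum was 682 and 153 FPKM in Lgr5-Cdx2-Apc and 4.99 FPKM in Lgr5-Apc replicate 2. Per 1000 FPKM of Krt10, the Krtap sum was 249 and 22.1 FPKM in Lgr5-Cdx2-Apc, 0.841 and 9.20 FPKM in Lgr5-Apc replicates 2 and 3, and 27.2 FPKM in Cdx2-Apc replicate 3, where Krt10 was 82.6 FPKM. Per 1000 FPKM of Krt14 it was 319 and 54.6 FPKM in Lgr5-Cdx2-Apc and 2.77 and 42.1 FPKM in Lgr5-Apc replicates 2 and 3. By either ratio Lgr5-Cdx2-Apc replicate 1 was well above both of these Lgr5-Apc libraries, while Lgr5-Cdx2-Apc replicate 2 and Lgr5-Apc replicate 3 were close by Krt14. Ratios in libraries with little Krt10 or Krt14 rest on values near 0.

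**Figure D5:**
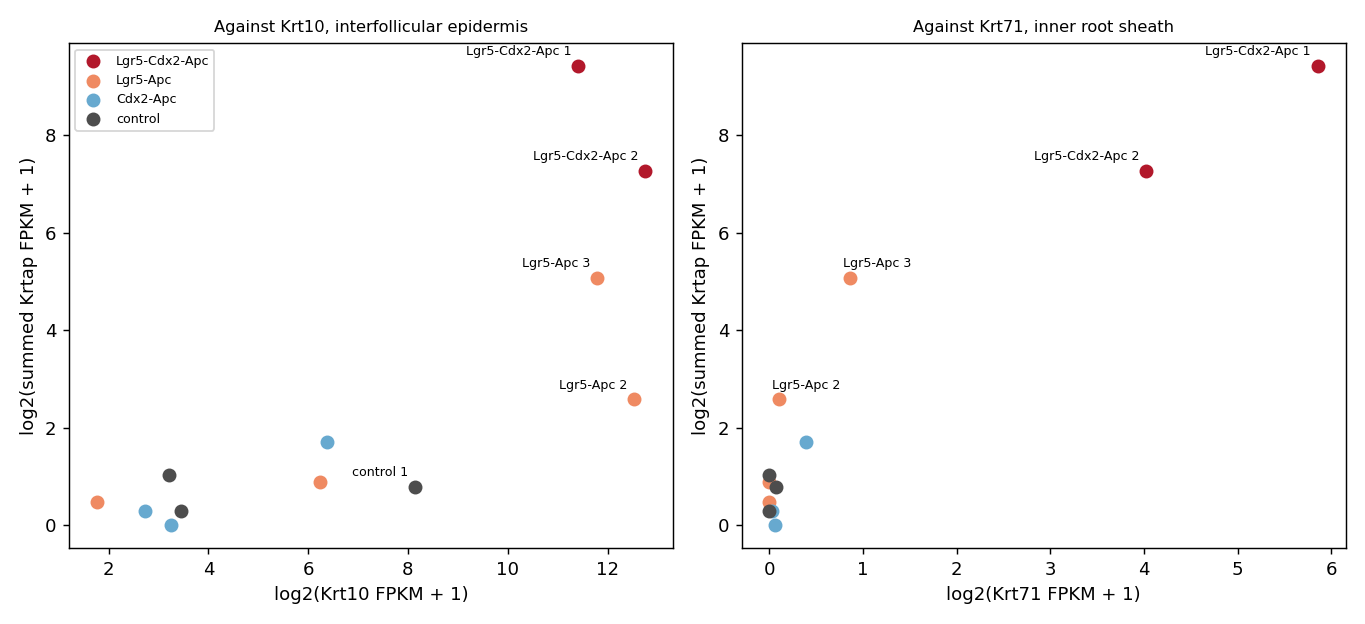
The summed Krtap level of each library, as log2(summed FPKM + 1), is plotted against Krt10 (left) and Krt71 (right), each as log2(FPKM + 1), with colour for the group. Lgr5-Apc replicate 2 lies as far right as the Lgr5-Cdx2-Apc libraries on the Krt10 axis, at 5939 FPKM, and near 0 on the Krt71 axis, at 0.0744 FPKM.

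Lists of other cell types also differed in Lgr5-Cdx2-Apc against control, without following the Krtap genes in every library. All 8 smooth muscle genes fell in Lgr5-Cdx2-Apc against control and against Lgr5-Apc. Of the columnar epithelium list, 7 of 10 genes fell against control and 3 against Lgr5-Apc. The cornifying epidermis list had 9 of 16 genes higher over control and 1, Krt2, over Lgr5-Apc. The sebaceous gland list had 4 of 12 higher over control and 0 over Lgr5-Apc, the stem cell and outer sheath list 4 of 13 and 3, and the skeletal muscle list 6 of 7 tested and 0. Beside these counts, 10.5% of all tested genes were higher and 8.55% lower over control, and 5.22% higher and 3.77% lower over Lgr5-Apc. Krt2 of the cornifying list entered the test only with the Lgr5-Cdx2-Apc libraries counted. The same holds for Lgr6 and Fgf18 of the stem cell and outer sheath list, so the calls of these genes are a description. The skeletal muscle list stood at 4.87 and 5.16 on the log2(FPKM + 1) scale in Lgr5-Cdx2-Apc and 5.01 in Lgr5-Apc replicate 2, and at most at 2.21 elsewhere. In Lgr5-Apc replicate 3, which had the next highest Krtap sum after Lgr5-Cdx2-Apc, this list stood at 1.18. Between the Lgr5-Cdx2-Apc libraries, the columnar list was also higher in replicate 1, with a median ratio of 7.84, and the sebaceous list was lower, with a median ratio of 0.468. The part of these cell types in the Krtap result was not tested, and genotype and the tissue a sample held cannot be told apart in a group of 2 libraries.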

How the data were processed

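Gene expression was measured by RNA-seq of total RNA from rectum in 12 libraries. Each gene has 1 FPKM value per library in the table deposited by the authors. Reads were processed with STAR, Cufflinks and Cuffdiff on mm10, per the submitters' processing notes. Versions and the gene annotation are not given in the sources used here. Libraries were NEBNext Ultra II directional, per the labels' protocols. Whole reads could not be recovered from the values, so depth is unknown and no counting interval is given. A value of 0 is reported as listed at 0. The number of libraries limits the precision.

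Of 27831 table lines, 25 carried names turned into dates and were kept unnamed. For repeated symbols the highest line by mean stayed, and 0 Krtap symbols were repeated. Genes at 1 FPKM or more in at least 2 libraries were tested as log2(FPKM + 1), pseudocount 1 FPKM, with limma 3.58.1 in R 4.3.3. The model held 1 term per group over the 12 libraries, with 6 two-sided contrasts and Benjamini-Hochberg adjustment within each. A gene was called at an adjusted p below 0.05. The procedure was tested on simulated data. Differences on this scale understate the change of low genes. Replicate numbers did not pair the samples and were left out of the model. The alternatives were 25 settings of pseudocount, filter, scaling, weights, moderation, replicate block and libraries left out, and thresholds of 0.5 and 2 FPKM for the number of genes.

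Named genes were the 15 highest Krtap genes, every called Krtap gene, the highest of each composition class and each chromosome, the highest of each hair list, and Krt10, Lor and Krt14. Protein sequences were not used here, so classes follow family numbers, and the ultrahigh and high cysteine classes were joined. Genes named outside the rule are marked in the text or belong to a count of 5 or fewer. The Krtap genes and the marker lists were chosen with earlier results of these data known. Windows of 50 bases were compared between GENCODE M21 transcripts: 15 Krtap genes shared none with another transcript and 13 shared over 20%, so their FPKM may hold reads of a copy.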

Additional observations from a re-analysis of the deposited data

Results flagged for a closer look

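Lgr5-Apc replicate 3 stood far from the other 3 libraries of its group, by Dixon's gap ratio, for the number of Krtap genes at 1 FPKM or more and for 15 single genes. Only the Krtap genes that were among the highest, called, or highest of their class or chromosome were examined in this way. Some not examined had the same form, such as Krtap2-4 and Krtap4-9, at 1.30 and 1.26 FPKM in replicate 3 and 0 in the rest of Lgr5-Apc. For 13 of the 15 flagged genes the other 3 libraries are all listed at 0, so that any value above 0 gives the full ratio and the flag carries no error rate. For the others chance would flag about 1 in 20 groups of normally distributed values. Most of their remaining libraries are at 0 as well, so this rate may not hold. The number was 14 in replicate 3, against 0, 1 and 0 in replicates 1, 2 and 4. The flagged genes high in glycine and tyrosine were Krtap7-1 at 3.85 FPKM, Krtap6-2 at 2.56 FPKM, Krtap21-1 at 2.22 FPKM, Krtap22-2 at 2.07 FPKM, Krtap6-1 at 1.24 FPKM and Krtap6-5 at 0.737 FPKM in replicate 3. The flagged KAP4 genes were Krtap4-1 at 2.01 FPKM, Krtap4-6 at 1.45 FPKM, Krtap4-8 at 1.31 FPKM, Krtap4-16 at 1.03 FPKM, Krtap4-7 at 0.461 FPKM and Krtap4-2 at 0.458 FPKM. The remaining flagged cysteine-rich genes were Krtap1-5 at 1.39 FPKM, Krtap9-3 at 0.711 FPKM and Krtap13-1 at 0.133 FPKM. In the other 3 Lgr5-Apc libraries all 15 genes were listed at 0, apart from Krtap1-5 and Krtap4-16 in replicate 1. These genes were high in 1 library together, so the 16 results are not independent of each other. The hair keratin list summed to 12.1 FPKM in replicate 3 and the cornifying epidermis list was high in replicates 2 and 3, and their part in the result was not tested.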

How the results depend on the processing

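With genes required at 1 FPKM in 3 libraries instead of 2, 12, 11 and 12 Krtap genes were called in Lgr5-Cdx2-Apc over control, Lgr5-Apc and Cdx2-Apc, because 12 genes then entered the test. With the compared groups fitted alone, Lgr5-Cdx2-Apc over Lgr5-Apc had 11 calls, and the cause was not tested. Without a filter the counts were 42, 41 and 43. Leaving out each library in turn gave 27 to 32 calls over control, 25 to 31 over Lgr5-Apc and 29 to 33 over Cdx2-Apc, and 0 in the 3 comparisons without Lgr5-Cdx2-Apc. With 1 Lgr5-Cdx2-Apc library left, it is assumed to vary like the other groups. The mean number of Krtap genes at 1 FPKM or more ran from 33 to 43 in Lgr5-Cdx2-Apc and from 0.333 to 5 in Lgr5-Apc when 1 library was left out, and stayed 0 in Cdx2-Apc and control. At 2 FPKM it was 29 in Lgr5-Cdx2-Apc and 1.75 in Lgr5-Apc, and at 0.5 FPKM it was 5.75 in Lgr5-Apc, 0.333 in Cdx2-Apc and 0.333 in control. The replicate numbers did not pair the samples: 15 same-number pairs had a median correlation of -0.02, from -0.30 to 0.42, and 5 were over 0.1. With a replicate block the counts were 32, 27 and 32, and 0 in the other 3 comparisons. No Krtap gene called over control changed sign under any setting. Krtap4-8 lost its call over control under 10 settings, Krtap12-1 without either Lgr5-Cdx2-Apc library, Krtap4-1 and Krtap4-16 without Lgr5-Cdx2-Apc replicate 1, and Krtap4-6 without that library or control replicate 2 or 3. Quantile scaling put the median log2 difference of all tested genes over control at -0.05 in place of 0.07 and left 31 calls.

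The groups hold 2 to 4 libraries, and Lgr5-Cdx2-Apc only 2. Depth is not known, so values near 0 have no detection limit.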
